A study of Mus musculus with 6 samples.

Results

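The genes described here are neurotrophins, their Trk and p75 receptors and the sortilin family, in hippocampal cells with and without knockdown of Diras2. The 9 genes named for this set were Bdnf, Ntf3, Ntrk2, Ntrk3, Ngfr, Sort1, Sorcs1, Sorcs2 and Sorcs3. A gene was read at the brightest array probe set, by mean over all arrays, that the platform annotation gives that 1 symbol alone. Of the 9, 8 had such a probe set, among 22180 genes tested, and Ntf3 was not analysed here. The choice of genes used no measured value of this comparison, but it was made with earlier results of these data known.

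The series holds 6 arrays of total RNA from primary cells of mouse hippocampus, dissected at embryonic day 18 (E18). Per the labels, cells were infected with AAV1/2, a recombinant adeno-associated virus, 7 days after seeding, and RNA was taken 7 days after infection. The knockdown group (n = 3) received a Diras2 knockdown construct and the control group (n = 3) a scrambled control, so both groups carry virus. Diras2 encodes a small GTPase of the Ras superfamily that is found mainly in brain. The labels name biological replicates but no separate cultures or litters, so the tests weigh differences only against the spread of these 6 samples, and that spread may be technical in part. A single construct was used against Diras2, and what follows from losing the gene and what follows from the construct otherwise cannot be told apart. The labels give no strain.

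Neurotrophins are secreted growth factors that are made as longer precursors and cut to the mature form. Mature BDNF acts on the receptor kinase TrkB (Ntrk2) and neurotrophin-3 on TrkC (Ntrk3), and both reach the Ras, PI3 kinase and phospholipase C pathways through adaptor proteins. Precursor forms bind p75 (Ngfr) together with sortilin (Sort1) or SorCS2 (Sorcs2), and sortilin-type receptors, which share a Vps10p domain, also sort neurotrophins and Trk receptors inside neurons. In the hippocampus BDNF is known above all for its part in synaptic plasticity.

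Levels are log2 values from the robust multi-array average (RMA), so a difference of 1 is 2-fold. Differences are knockdown minus control, and a gene is said to rise or fall where its adjusted p was under 0.05 (limma, Benjamini-Hochberg over all 22180 genes). Array medians lay between 4.03 and 4.11, and arrays of 1 group correlated across genes at 0.9883 to 0.9947 and arrays of different groups at 0.9814 to 0.9892. Diras2 itself was at 7.17, 6.23 and 6.08 on the knockdown arrays and at 10.17, 10.17 and 9.76 on the control arrays, a difference of -3.54 (SE 0.27, adjusted p = 0.00063 by limma). Neuron markers (Rbfox3, Map2, Tubb3, Syt1, Snap25 and Stmn2) averaged 11.15 to 11.42 in the knockdown and 11.24 to 11.57 in the control. Of these 6, 1 fell, Snap25, with a difference of -0.51 (adjusted p = 0.0471 by limma, 0.0171 with the replicate number as a block). Its level was lower on every knockdown array than on every control array. The number that fell was 0 when any 1 array except control replicate 3 was left out, and 0 under quantile normalisation or median centring. Syt1 was lower on every knockdown array, with a difference of -0.58 (adjusted p = 0.107 by limma, 0.0130 with the replicate number as a block), and Tubb3 higher on every one, with a difference of 0.39 (adjusted p = 0.106 and 0.0517). Of the microglia markers 5 of 7 had a mean under 5, as did 49.3% of all genes. Whether a level that low lies above background was not tested.

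Of the 8 genes, Sorcs2 rose and 7 did not pass the test. Over all genes 7.80% passed, 4.17% higher and 3.64% lower. Of the 8, 6 had a mean level of at least 6, and of all genes at that level 15.9% passed. Ngfr and Sorcs3 were lower in every knockdown array than in every control array, and neither passed in the reported fit, while both passed with the replicate number as a block. The blocked fit called 11.7% of all genes, 6.05% higher and 5.64% lower, and 22.8% of those with a mean level of at least 6. Bdnf, Ntrk2, Ntrk3, Sort1 and Sorcs1 had overlapping groups. The groups did not overlap for 3 of the 8, against 25.5% of all genes. The median difference of the 8 was -0.19, against 0.00 for all genes, and 5 of the 8 lay below 0. For the 6 with a mean level of at least 6 the median was -0.01, with 3 above and 3 below 0.

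**Figure D1:**
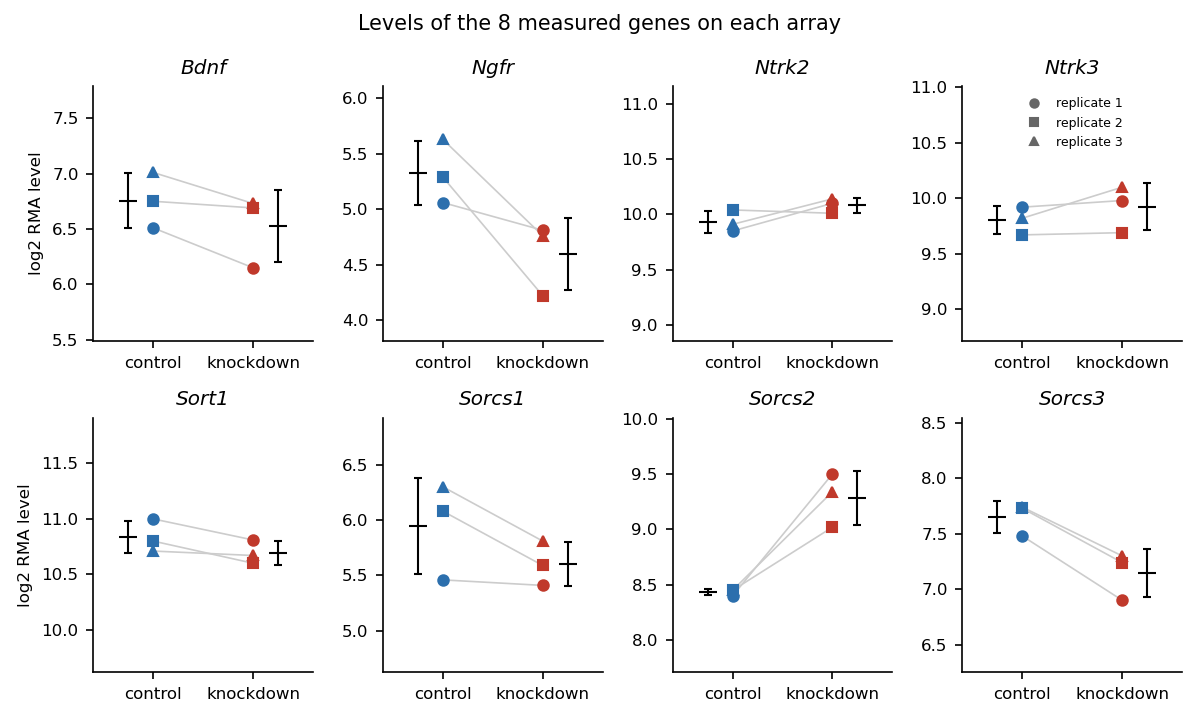
Each panel plots the log2 RMA level (vertical axis, the same span in every panel) of 1 gene on the 3 control arrays (blue) and the 3 knockdown arrays (red); symbols mark the replicate number, grey lines join arrays of the same number, and black bars give the mean ± SD of each group. Sorcs2 lies higher on all 3 knockdown arrays, at 9.02 to 9.50, than on the control arrays, at 8.40 to 8.45, and Ngfr and Sorcs3 lie lower.

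Promoter sequences were looked up for all 8 genes in a RefSeq table of build GRCm38.p6, and 5 of them (Bdnf, Ngfr, Ntrk2, Sorcs1 and Sorcs3) were matched. The 250 bases before the annotated start are given, 5′ to 3′ on the strand of the gene, for the genes whose knockdown arrays all lay below the controls, and for the Bdnf start that holds a cAMP response element half-site. Capitals mark every match, on either strand, to the half-site TGACG, which CREB-family factors bind, or to the GC box GGGCGG, which Sp1-family factors bind.
Ngfr, chr11:95587699-95587948, minus strand: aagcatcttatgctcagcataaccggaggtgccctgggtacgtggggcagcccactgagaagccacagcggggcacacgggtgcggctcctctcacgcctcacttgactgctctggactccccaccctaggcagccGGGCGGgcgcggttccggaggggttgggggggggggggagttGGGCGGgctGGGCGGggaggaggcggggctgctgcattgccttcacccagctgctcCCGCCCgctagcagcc
Sorcs3, chr19:48205775-48206024, plus strand: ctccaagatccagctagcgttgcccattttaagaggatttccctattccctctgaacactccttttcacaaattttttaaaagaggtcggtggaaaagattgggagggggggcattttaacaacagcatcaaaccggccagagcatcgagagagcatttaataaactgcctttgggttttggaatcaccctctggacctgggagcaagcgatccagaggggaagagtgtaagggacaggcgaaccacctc
Bdnf, chr2:109692186-109692435, plus strand: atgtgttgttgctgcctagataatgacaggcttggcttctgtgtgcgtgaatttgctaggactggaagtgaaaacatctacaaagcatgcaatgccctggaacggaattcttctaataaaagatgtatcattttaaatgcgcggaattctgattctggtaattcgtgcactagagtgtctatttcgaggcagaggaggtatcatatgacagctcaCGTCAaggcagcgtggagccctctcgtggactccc

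The Ngfr window held 4 GC boxes and had a GC content of 70.4%, and the Sorcs3 window held no match and had a GC content of 48.4%, against a median of 52.4% over all 32851 windows of the table. A GC box was present in 32.7% of all windows. The Sorcs1 window, not printed, held 2 GC boxes, and 2 of the 7 Bdnf windows held at least 1. Bdnf had 7 annotated starts, a number reached by 0.107% of genes in the table, and 1 of its 7 windows held the half-site, 35 bases before the start. The half-site was present in 17.8% of all windows. Both strands were also searched for other motifs, none of which matched in any window of these 5 genes. The E-box CACGTG was present in 6.02% of all windows. The TATA box TATAAA was present in 12.4% of all windows. The AP-1 site TGACTCA was present in 4.46% of all windows. No motif searched contains another. A match describes letters in these windows and does not show that a factor binds there.

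Bdnf, the ligand of TrkB, was measured by 1 probe set, so transcripts from its 7 starts were not told apart. Its levels were 6.15, 6.69 and 6.73 on the knockdown arrays and 6.51, 6.75 and 7.01 on the control arrays. The groups overlapped, and in each group replicate 1 was the lowest. The difference was -0.23 (SE 0.19, 95% confidence interval -0.66 to 0.20), with an adjusted p of 0.564 by limma and of 0.218 with the replicate block. Arrays of the same number differed by -0.36, -0.06 and -0.28. The interval leaves room for a decrease to 0.66 below the control on the log2 scale as well as for a small increase.

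Among the receptors, Ntrk2, the kinase receptor for BDNF, had levels of 10.10, 10.01 and 10.14 in the knockdown and 9.85, 10.04 and 9.91 in the control. The knockdown values overlapped the control values through replicate 2. The difference was 0.15 (SE 0.10, interval -0.08 to 0.38, adjusted p = 0.467 by limma). The probe set gives 1 value per gene, so full-length and truncated TrkB were not told apart.

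Ntrk3, the receptor for neurotrophin-3, had levels of 9.98, 9.69 and 10.10 in the knockdown and 9.92, 9.67 and 9.82 in the control. Replicate 2 was the lowest in both groups. The difference was 0.12 (SE 0.13, interval -0.19 to 0.43, adjusted p = 0.697 by limma). Whether both Trk genes moved alike was asked of their difference within each array, which was 0.13 ± 0.22 (SD, n = 3) on control arrays and 0.16 ± 0.14 on knockdown arrays. The change between groups was 0.03, with an exact two-sided permutation p of 0.9.

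Ngfr, the p75 receptor that binds all neurotrophins and, with sortilins, their precursors, had levels of 4.81, 4.22 and 4.76 in the knockdown and 5.06, 5.29 and 5.63 in the control. All knockdown values lay below all control values, and in 12.1% of all genes the groups were apart in this direction. The difference was -0.73 (SE 0.20, interval -1.18 to -0.28), 1.66-fold. Its adjusted p was 0.0645 by limma and 0.0359 with the replicate block. Same-numbered arrays differed by -0.25, -1.07 and -0.87, so replicate 1 showed the least. With array weights the adjusted p was 0.0270. Without control replicate 1 it was 0.0490, and without any other single array it ran from 0.0747 to 0.176. The difference was -0.47 (adjusted p = 0.161) with the RNA integrity number, which was 9, 9.3 and 9.2 in the knockdown and 9.2, 9 and 8.8 in the control, as a covariate. With a mean of 4.96 over all arrays Ngfr was among the dim genes of these arrays, where RMA can understate a fold.

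Sorcs2, a receptor for pro-BDNF and a partner of p75, was the member that rose. Its levels were 9.50, 9.02 and 9.34 in the knockdown and 8.40, 8.45 and 8.45 in the control. The lowest knockdown array stood clearly above the highest control array, and the control arrays lay close together. The means were 9.29 ± 0.24 and 8.43 ± 0.03 (SD, n = 3), a difference of 0.85 (SE 0.13, interval 0.55 to 1.16) or 1.81-fold (adjusted p = 0.00781 by limma). Same-numbered arrays differed by 1.10, 0.57 and 0.89. An exact two-sided permutation test of this gene alone gave 0.1, the smallest p that 3 against 3 arrays allow. Without each array in turn the difference ran from 0.75 to 0.99 and the adjusted p from 0.0110 to 0.0416.

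Sorcs3, a neuronal sortilin-family receptor of the hippocampus, had levels of 6.90, 7.24 and 7.30 in the knockdown and 7.48, 7.73 and 7.74 in the control. All knockdown values lay below all control values, and replicate 1 was the lowest in both groups. The difference was -0.50 (SE 0.14, interval -0.82 to -0.19), 1.42-fold. Its adjusted p was 0.0672 by limma and 0.0189 with the replicate block. Same-numbered arrays differed by -0.58, -0.49 and -0.44, a narrow range beside the spread within each group. The adjusted p was also under the threshold among genes with a mean of at least 5 (0.0419) or 6 (0.0361) and with array weights (0.0294), and it ran from 0.0576 to 0.214 without each array in turn. With RNA integrity as a covariate the difference was -0.51 and the adjusted p by limma 0.184. With all probe sets tested the adjusted p was 0.143.

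Sorcs1, a relative that sorts cargo in neurons, had levels of 5.41, 5.59 and 5.81 in the knockdown and 5.46, 6.08 and 6.30 in the control. The groups overlapped through control replicate 1, the lowest control array. The difference was -0.34 (SE 0.21, interval -0.83 to 0.15), with an adjusted p of 0.429 by limma and of 0.133 with the block. The interval with the block, not adjusted for the number of genes, was -0.63 to -0.05. Without control replicate 1 the difference was -0.59 and the adjusted p 0.0632.

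Sort1, sortilin itself, had levels of 10.81, 10.60 and 10.67 in the knockdown and 11.00, 10.80 and 10.71 in the control. The groups overlapped, and replicate 1 was the highest in each. The difference was -0.14 (SE 0.11, interval -0.41 to 0.12, adjusted p = 0.562 by limma). A dim probe set also named for Sort1 alone, at 4.39 to 4.68 on all 6 arrays, had a difference of 0.02.

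Whether the sortilin-family genes moved alike was asked of their differences within each array. The log2 difference between Sorcs2 and Sorcs3 within each array was 0.78 ± 0.12 (SD, n = 3) on control arrays and 2.14 ± 0.42 on knockdown arrays, a change of 1.36. The same change was -0.997 for Sort1 minus Sorcs2 and -1.20 for Sorcs1 minus Sorcs2. In these 3 pairs the groups did not overlap, and the exact two-sided permutation p was 0.1 for each, the smallest possible, and 0.233 after adjustment over the 7 pairs compared, so none could pass. Sort1 minus Sorcs3, Sort1 minus Sorcs1 and Sorcs1 minus Sorcs3 changed by 0.36, 0.20 and 0.16, with exact permutation p-values of 0.3, 0.7 and 0.7. Levels of different probe sets are not on a common scale, so only these changes carry meaning. Probe sequences were not used here, and whether transcripts of 1 Sorcs gene bind probes of another was not tested.

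**Figure D2:**
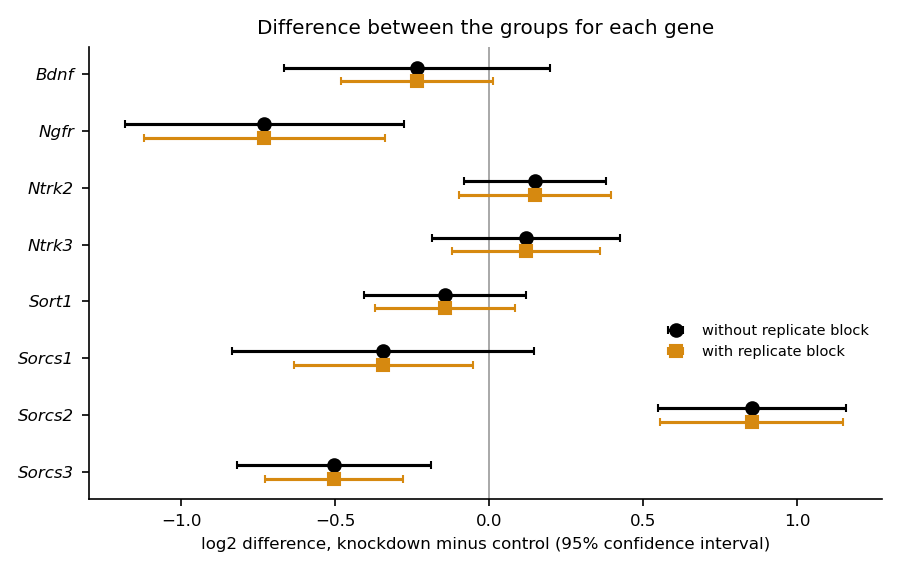
Points give the log2 difference between knockdown and control (horizontal axis) of the 8 genes and bars its 95% confidence interval by limma, without (black circles) and with (orange squares) the replicate number as a block. The intervals of Sorcs2 (0.55 to 1.16 without the block), Ngfr (-1.18 to -0.28) and Sorcs3 (-0.82 to -0.19) lie off 0 in both fits. That of Sorcs1 lies off 0 only with the block (-0.63 to -0.05). The intervals are not adjusted for the number of genes.

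Markers of other cell types were read beside these genes, and those singled out here are named after their values were seen. The mean level of 4 cycling-cell markers was 4.62 to 5.33 in the knockdown and 3.89 to 4.06 in the control, and 3 of the 4 rose, Mki67, Top2a and Cdk1. Of the 4, 3 had a mean under 5, as did 49.3% of all genes. On removal of single arrays all 4 differences stayed above 0, but the number that rose varied. Removing replicate 3 of the knockdown left 0, and so did removing replicate 2 of the control. Removing replicate 2 of the knockdown left 1, as did removing replicate 3 of the control. RNA integrity as a covariate, or testing all probe sets, also left 1. Of 6 fibroblast markers 1 rose, Pdgfra, and the list averaged 5.79 to 6.32 against 5.47 to 5.73. Pdgfra is also on the oligodendrocyte lineage list, and without it, a choice made after seeing the data, the fibroblast averages of 5.76 to 6.14 and 5.64 to 6.10 overlapped. Lum, another fibroblast marker, was lower on every knockdown array (3.29, 3.01 and 3.83 against 4.40, 3.92 and 4.03), a difference of -0.74 with an adjusted p by limma of 0.0838, and of 0.0442 with the block. Of 7 endothelial and mural markers 1 fell, Rgs5, with averages of 4.65 to 4.85 against 4.90 to 4.99. Rgs5 had a difference of -1.40, and without it, also chosen after seeing the data, the averages of 4.34 to 4.52 and 4.36 to 4.48 overlapped. Microglia markers averaged 4.44 to 4.47 against 4.48 to 4.72 with 0 of 7 passing by limma, 2 of them at an unadjusted p under 0.05. These 2, Csf1r and Cx3cr1, were lower on every knockdown array, and with the block Csf1r passed (adjusted p = 0.0339) and Cx3cr1 did not (0.124). The block called 11.7% of all genes. Averages of astrocyte markers, 7.77 to 8.14 against 8.03 to 8.19, and of oligodendrocyte lineage markers, 6.04 to 7.04 against 5.80 to 6.21, overlapped between groups. Of 9 astrocyte markers 0 passed by limma and 1 with the block. This was Gja1, with a difference of -0.59 (adjusted p = 0.166 by limma and 0.0385 with the block). In bulk RNA, fewer cells of a type and less RNA per cell cannot be told apart, and the part of these markers in the differences of Sorcs2, Ngfr and Sorcs3 was not tested.

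Other genes of the pathway were read from 8 lists chosen with earlier results of these data known. Of 136 genes on the lists 116 were measured, of which 8 rose and 7 fell, and the median difference was -0.08. The share that passed, 12.9%, lay above the 7.80% of all genes and below the 15.9% of genes with a mean level of at least 6. Among lists with more than 1 measured gene it ran from 9.09% (Ras, MAP kinase and Akt genes) to 21.4% (p75 co-receptors and adaptors). With the replicate block 10 rose and 16 fell, 22.4%, against 22.8% of genes with a mean level of at least 6.

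Of the list of other neurotrophins and Trk receptors only Ntf5, which encodes neurotrophin-4, was measured. Named after its values were seen, it had levels of 3.81, 4.17 and 3.43 in the knockdown and 3.73, 3.69 and 3.69 in the control, among the dim genes, with overlapping groups and an adjusted p by limma of 0.819.

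Among 9 measured sorting partners of sortilins, 1 rose and 0 fell, and the median difference was 0.08. The member that rose was Vps26b, a subunit of the retromer complex that returns receptors from endosomes, from 10.10 ± 0.16 to 10.58 ± 0.08 (SD, n = 3), with an adjusted p of 0.0416 by limma. It did not pass without any 1 of the 6 arrays (0.0506 to 0.116). Sorl1, the other Vps10p-domain receptor, had a difference of -0.42 (SE 0.17) and an adjusted p of 0.214 by limma, and is named after its values were seen. Its knockdown values of 7.77, 7.38 and 7.93 overlapped the control values of 8.33, 7.87 and 8.13.

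Of 13 measured genes for the processing and release of pro-neurotrophins, 1 rose and 1 fell, and the median difference was 0.00. Furin, a protease that cuts neurotrophin precursors in the Golgi, rose from 7.48 ± 0.12 to 7.99 ± 0.14 (SD, n = 3), by 0.51 (SE 0.11, adjusted p = 0.0349 by limma). Pcsk1, a convertase of the regulated secretory pathway, fell from 8.04 ± 0.22 to 7.42 ± 0.23, with a difference of -0.62 (SE 0.16, adjusted p = 0.0497 by limma). Furin passed only without knockdown replicate 1 among the 6 arrays left out singly (0.0526 to 0.131 otherwise), and Pcsk1 only without knockdown replicate 2 or control replicate 3 (0.109 to 0.162 otherwise).

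Of 14 measured p75 co-receptors and adaptors, 2 rose and 1 fell, and the median difference was 0.12. Traf6, a ubiquitin ligase that binds p75, rose from 6.62 ± 0.13 to 7.58 ± 0.16 (SD, n = 3), 1.95-fold (adjusted p = 0.00324 by limma), and passed without each array in turn. Bex3, which binds the death domain of p75, rose 1.67-fold (adjusted p = 0.0283 by limma). Rtn4, which encodes the myelin inhibitor Nogo, fell 1.52-fold (adjusted p = 0.0212 by limma). Both kept their calls only without knockdown replicate 1 or control replicate 3 (otherwise 0.0678 to 0.119 for Bex3 and 0.0548 to 0.0860 for Rtn4).

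Of 29 measured Trk adaptors and proximal signalling genes, 2 rose and 2 fell, and the median difference was -0.07. Crkl, an adaptor that links Trk receptors to Rap1, rose from 7.44 ± 0.10 to 8.30 ± 0.14 (SD, n = 3), 1.81-fold (adjusted p = 0.00368 by limma). Gab2, a docking protein for PI3 kinase, fell from 9.07 ± 0.26 to 7.98 ± 0.08, 2.12-fold (adjusted p = 0.00372 by limma). Crkl and Gab2 passed without each array in turn. Pik3ca, a catalytic subunit of PI3 kinase, fell 1.61-fold (adjusted p = 0.00986 by limma, 0.0527 without knockdown replicate 2). Crk, the relative of Crkl, rose 1.58-fold (adjusted p = 0.0445 by limma) and kept its call only without control replicate 1 (0.0541 to 0.158 otherwise).

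Of 11 measured Ras, MAP kinase and Akt genes below Trk, 1 rose and 0 fell, and the median difference was 0.02. Nras, a classical Ras protein, was the one, at 8.54, 8.30 and 8.19 in the knockdown and 7.17, 7.08 and 7.21 in the control, 2.28-fold higher (adjusted p = 0.00132 by limma). Of 17 measured regulators of Bdnf transcription, 1 rose and 1 fell, and the median difference was -0.09. Mef2a, an activity-regulated transcription factor, rose 1.62-fold (adjusted p = 0.0262 by limma), and Arnt2, the partner of NPAS4 on its target genes, fell 1.87-fold (adjusted p = 0.0145 by limma). Mef2a kept its call only without control replicate 1 (0.0582 to 0.102 otherwise), and Arnt2 lost it without knockdown replicate 2 (0.0530) or control replicate 2 (0.0728).

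**Figure D3:**
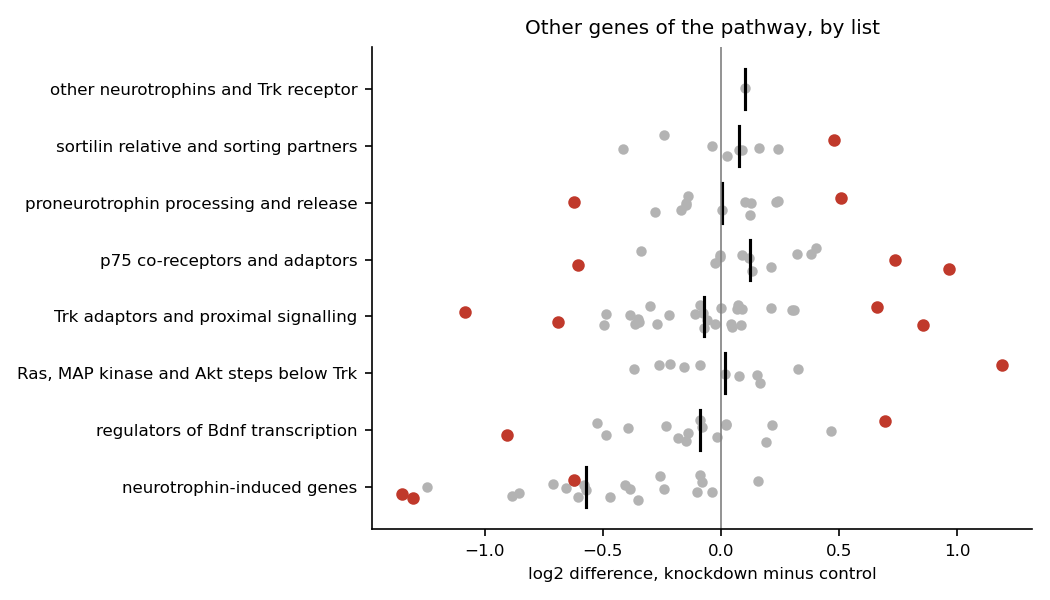
Each dot is the log2 difference between knockdown and control (horizontal axis) of 1 measured gene, grouped by pathway list (vertical axis, with a small random offset); red dots passed limma at an adjusted p under 0.05, grey dots did not, and black bars mark the median of the list. In 7 of the lists the medians lie between -0.09 and 0.12, and neurotrophin-induced genes have a median of -0.57.

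Genes known to be induced by neurotrophins, most of them also by neuronal activity, had a median difference of -0.57, the lowest of these lists, with 22 of the 23 measured genes below 0. By limma 3 of the 23 fell, 0 rose and 20 did not pass. The share that passed, 13.0%, lay above the 7.80% of all genes and below the 15.9% of those with a mean level of at least 6. Some of the 20 had an unadjusted limma p under 0.05, all of them lower in the knockdown. With the replicate block 10 fell, 43.5%, against 11.7% of all genes and 22.8% of those with a mean level of at least 6. Many of the 23 are immediate-early genes whose direction was already known from these data when the list was written, so the count is not independent evidence. The list averaged 6.54, 7.17 and 7.21 on the knockdown arrays and 6.96, 7.69 and 7.87 on the control arrays. The groups overlapped, and replicate 1 was the lowest in both.

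Dusp4, a phosphatase that switches off MAP kinases, fell from 8.79 ± 0.46 to 7.49 ± 0.31 (SD, n = 3), 2.47-fold (adjusted p = 0.0161 by limma). Inhba, which encodes a subunit of activin, fell from 6.74 ± 0.74 to 5.39 ± 0.16, 2.55-fold (adjusted p = 0.0405 by limma). The third was Pcsk1. Dusp4 lost its call without knockdown replicate 2 (0.0679) or control replicate 2 (0.0780), and Inhba kept its call only without control replicate 1 (0.1 to 0.121 otherwise). The number that fell was 0 without control replicate 2, 1 without any 1 of the knockdown arrays, 2 without control replicate 3 and 4 without control replicate 1, and the median was -0.25 without knockdown replicate 1 and -0.34 without control replicate 3.

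The 7 genes that passed with the block but not in the reported fit, named after their values were seen, were Vgf, Npy, Cort, Dusp5, Dusp6, Egr1 and Spry2. Vgf, which encodes a secreted peptide precursor, was at 8.18, 9.11 and 9.16 in the knockdown and at 9.02, 9.80 and 10.28 in the control. Its groups overlapped, while each knockdown array lay below the control array of its number. The difference was -0.88 (SE 0.35), with an adjusted p of 0.198 by limma and of 0.00567 with the replicate block. Egr1, a transcription factor induced by MAP kinase signalling, had a difference of -0.58 and adjusted p-values of 0.0855 and 0.0275 in the same fits, and it also passed without control replicate 1 (0.0368) and with array weights (0.0263). Arc, a synaptic immediate-early gene, and Homer1, a postsynaptic scaffold gene, also named after their values were seen, had differences of -0.09 and -0.10 and passed in neither fit.

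Npy and Cort, neuropeptide genes of interneurons, had differences of -1.24 (SE 0.84) and -0.85 (SE 0.85), with overlapping groups. Their adjusted p-values were 0.477 and 0.655 by limma, and 0.00767 and 0.00688 with the replicate block. Without knockdown replicate 1 the differences were -0.585 and -0.008. Inhibitory neuron markers, a list that also holds Npy, averaged 7.38 to 7.93 in the knockdown and 7.66 to 8.42 in the control, and 1 of 10, Lhx6, fell. With the replicate block 4 of the 10 fell, Lhx6, Dlx2, Sst and Npy. That share of 40.0% compares with 11.7% of all genes and 22.8% of those with a mean level of at least 6. In the reported fit 1 of the 10 passed, where 7.80% of all genes did and 15.9% of those at that level. Of these fits only the blocked one gave a share above both backgrounds, and the labels state no pairing. Of the 10, 2 lay above 0, Gad1 and Pvalb. Of 7 excitatory hippocampal neuron markers 0 passed in either fit, and their median difference was 0.17. The part of the inhibitory neuron markers in the values of Npy and Cort was not tested.

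**Figure D4:**
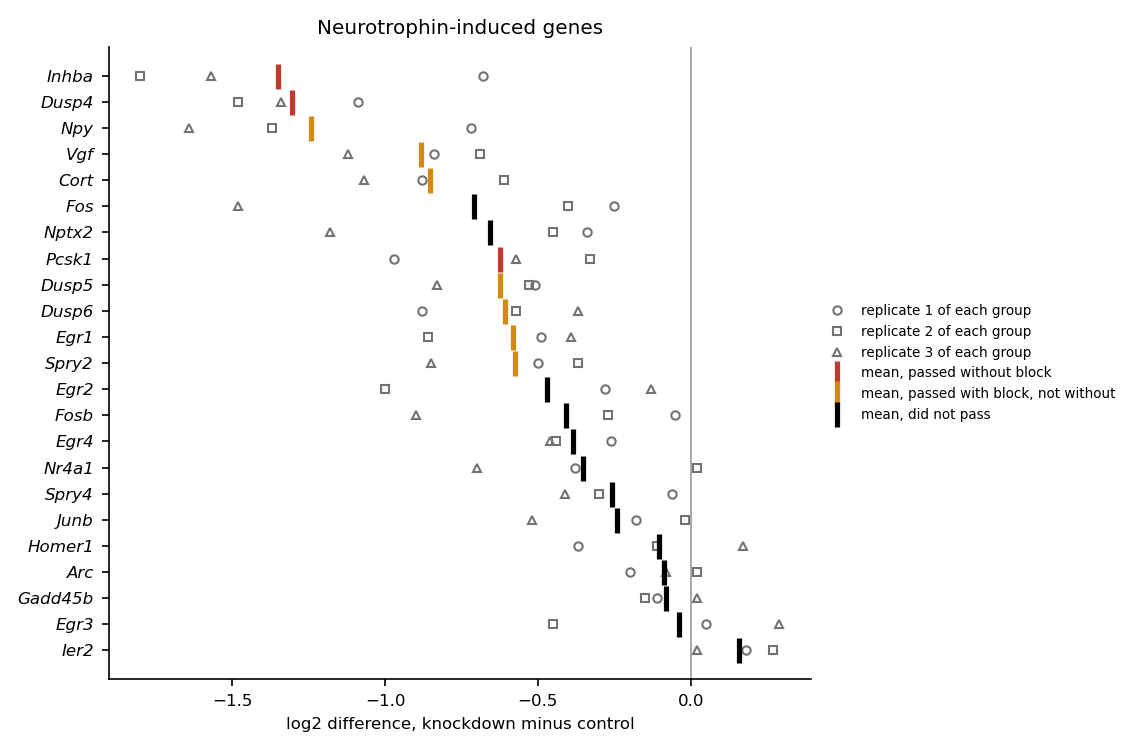
Open symbols give the log2 difference between knockdown and control (horizontal axis) of arrays with the same replicate number for the 23 measured neurotrophin-induced genes, and thick ticks the mean; red ticks passed limma without a block, orange ticks with the replicate block but not without it, black ticks in neither fit. Of the 23 ticks 22 lie below 0, 3 are red and 7 orange.

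**Figure D5:**
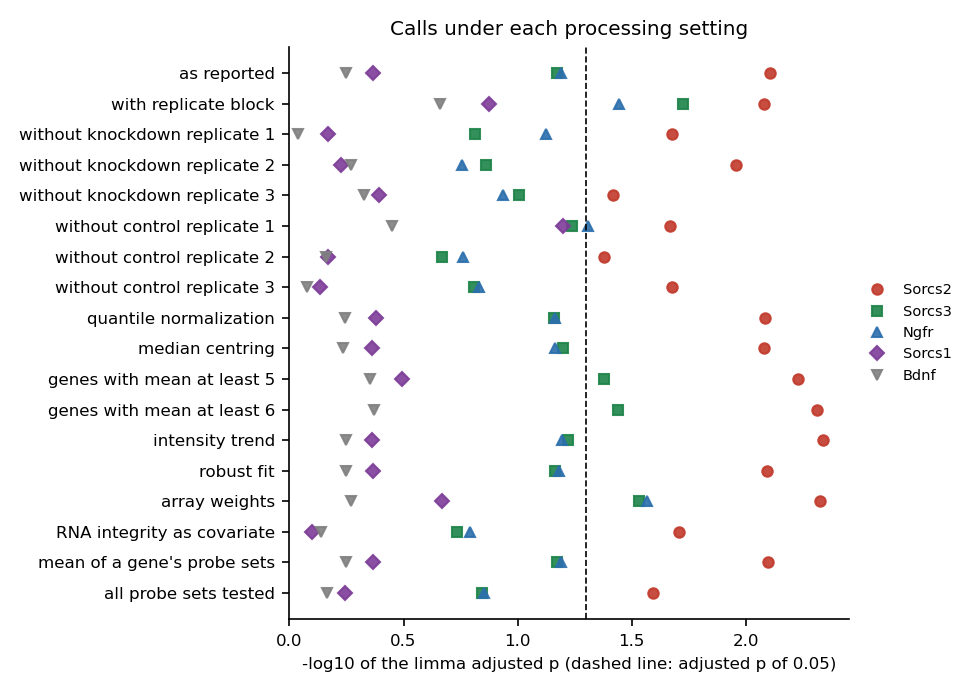
The horizontal axis is -log10 of the adjusted p by limma of 5 of the genes under each processing setting (vertical axis), with a dashed line at an adjusted p of 0.05; genes removed by a filter have no symbol. Sorcs2 lies right of the line in every setting shown, with adjusted p-values up to 0.0416, while Ngfr and Sorcs3 cross it in 3 and 4 of the alternatives and Sorcs1 and Bdnf in 0.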

How the data were processed

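Total RNA of 6 samples was read on Affymetrix whole-transcript arrays. Per the submitters' processing notes, the authors used Affymetrix Expression Console 1.2.1.20 and RMA, which gives each probe set a deposited level on a log2 scale. Since RMA forces arrays to 1 distribution, it would hide a shift of most genes. Probe intensities, detection calls and the genome build were not used here. Of 41345 probe sets, 23521 carry 1 gene symbol, 1814 several and 16010 none in the platform annotation, and 22180 genes were tested at their brightest probe set. The number of arrays limits the precision.

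Groups follow the sample titles. limma 3.58.1 (R 4.3.3, lmFit and eBayes) was fitted to all genes. The code was also run on simulated data with independent noise and no replicate structure. That check required only that planted differences larger than those of the members be found, so it does not cover differences of their size. Pairs of genes were compared by exact permutation over the arrays (scipy 1.17.1). Genes named were the members, the called genes of each list (at most the 4 with the smallest p) and, for the 3 members with the smallest p, the 3 genes of nearest profile. Ntf5, Sorl1, Arc, Homer1, the marker genes and the 7 induced genes called with the block but not without it are named outside that rule, after their values were seen. Members and lists were chosen with earlier results of these data known.

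Deviations of same-numbered samples from their group means correlated at 0.427, 0.121 and 0.374 across genes, against -0.378 to 0.0568 for other pairs. Deviations within a group cancel out, so high values for some pairs force low values for others. The 6 samples thus cannot settle whether the numbers mark pairs, and replicate 2, at 0.121, stood little apart. The block treats same-numbered samples as pairs on these values alone, since the labels state no pairing. The reported fit has no block. Alternatives were the replicate block, each array left out, quantile normalisation, median centring, filters at a mean of 5 or 6, an intensity trend, a robust fit, array weights, RNA integrity as a covariate, other uses of probe sets and other thresholds. Figures were drawn with matplotlib 3.10.9.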

Additional observations from a re-analysis of the deposited data

How the results depend on the processing

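Sorcs2 and Diras2 passed under all 17 alternatives, with adjusted p-values by limma up to 0.0416 and 0.00778, and each of the 8 genes kept its direction in every alternative that tested it. With the replicate block 2 members were lower, 16 genes of the pathway lists and 10 neurotrophin-induced genes were lower, and 1252 of all genes were lower against 807; it changed no other call of a member. With array weights the lower counts were 2, 12, 5 and 1302, and 1401 of all genes were higher against 924. With RNA integrity as a covariate 3 and 3 pathway genes were higher and lower, 1 neurotrophin-induced gene was lower, and 402 and 356 of all genes were higher and lower. With all probe sets tested these were 3 and 4, 1, and 533 lower of all probe sets. Filters at a mean of 5 and 6 left 1 member lower, with 11 and 13 pathway genes lower; Ngfr was removed by both and Sorcs1 by the second. At an adjusted p under 0.1, 2 members, 14 pathway genes and 1238 of all genes were lower. At 0.01, 3 and 2 pathway genes were higher and lower, 0 neurotrophin-induced genes were lower, and 354 and 290 of all genes were higher and lower. Leaving out each array gave 383 to 800 genes higher and 306 to 687 lower, 0 to 1 members lower, 3 to 5 and 2 to 8 pathway genes, and 0 to 4 neurotrophin-induced genes lower. It moved Ntrk2 minus Ntrk3 from -0.07 to 0.15 and Sort1 minus Sorcs1 from -0.04 to 0.53, so these had no stable direction. Sorcs1 minus Sorcs3 was 0.0017 without control replicate 1 against 0.16, and the other 4 pairs kept their direction. Fewer genes enter the fit and the adjustment under the filters, and more rows enter both with all probe sets. The cause of a changed count was not tested for any setting. Median centring, quantile normalisation, the trend, the robust fit and the mean of probe sets kept the member counts. Weak signal limits Ngfr, whose level relative to background was not tested.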

Other observations

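Genes whose profile over the 6 arrays came nearest to 3 of the genes were looked up among genes with a mean level of at least 6, by the root mean square distance in log2 units after each profile was centred on its own mean. Nearest to Sorcs2 were Klhl32, Nepro and Dpp9, at distances of 0.0912, 0.0930 and 0.0984, where the median over 9015 genes was 0.461. Klhl32 was at 7.39, 7.05 and 7.19 in the knockdown and at 6.12, 6.29 and 6.30 in the control. Nearest to Ngfr were Pgpep1, Mdk and Mavs, at 0.0914, 0.0959 and 0.101. Mdk, which encodes the secreted growth factor midkine, was at 6.46, 6.12 and 6.61 in the knockdown and at 6.87, 7.02 and 7.28 in the control. Nearest to Sorcs3 were Pdzrn3, Ginm1 and Ptprz1, at 0.0573, 0.0598 and 0.0696. Ptprz1, a receptor tyrosine phosphatase, was at 8.56, 8.73 and 8.92 in the knockdown and at 9.06, 9.38 and 9.45 in the control. These distances describe 6 arrays, no test was made of them, and many genes separate the same groups.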
